A study of Zea mays with 46 samples.

Results

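The group described here holds 240 maize genes of the 39005 in the count table. They were read at a lower level in silks with the P1-rr allele than in silks with P1-ww. In pericarp, the tissue that surrounds the kernel, the means of the P1 stocks lay within set limits of each other or were both very low. The members were chosen from RNA-seq read counts scaled to the library total (CPM). The lowest of the 3 P1-ww silk libraries had to be at least 1.5 times the highest of the 3 P1-rr silk libraries, and mean P1-ww silk had to reach 5 CPM. In pericarp the P1-rr mean had to lie between 0.67 and 1.5 times the P1-ww mean, or both means had to be below 1 CPM. Silk and pericarp of the P1-rr and P1-ww stocks therefore chose the members, and their values are given as a description without a test.

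P1 is a MYB transcription factor that is known for switching on genes of flavonoid synthesis in the floral organs of maize. In pericarp and cob its products feed into red phlobaphene pigments. In silk, the long style that catches pollen, they feed into maysin and related flavones that act against caterpillars of the corn earworm. The P1-rr allele colours both pericarp and cob red, whereas plants with P1-ww have neither coloured.

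RNA-seq covered 9 groups, each 1 sample in the labels with 3 columns in the count table. The columns were taken as the 3 biological replicates that the study's design text describes, and every n = 3, SD and test rests on this. Unfertilised silks, at 0 days after pollination, were taken from stocks with P1-rr or P1-ww, from the inbreds B73 and A632, and from the hybrid F1 of B73 and A632. Pericarp, called kernels in 1 label field, was taken from both P1 stocks at 14 days. Leaf protoplasts, cells without walls, came from etiolated F1 seedlings 12 days old and received by electroporation an empty vector or P1 driven by the viral 35S promoter (35S:P1). The labels give A619 as the inbred of both P1 stocks, and each silk or pericarp replicate pooled a pair of field plants. Effects of the P1 allele and of other DNA differences between these stocks cannot be told apart. A protocol text names Mo17 as a parent of the hybrid, while the sample fields name B73 and A632, which are used here. Library totals ran from 18910941 to 54466743 counts, with 20490591 to 28224572 in the 6 silk libraries that chose the members. The reference table at hand holds 0 of the identifiers of the count table, so the genes are given by identifier, at most 2 in each direction of a comparison, without names or roles. For the same reason the p1 gene, tissue markers and the peak lists of the series are not analysed here.

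In silk the median member stood 2.44 times higher in P1-ww than in P1-rr, with quartiles of 2.03 and 3.46. The fold of the group means was below 2 in 52 members, from 2 to 4 in 144, from 4 to 10 in 35, and 10 or more in 9. Over the 12059 genes that met the level and pericarp conditions the median fold was 0.977. Of the 15875 genes with 5 CPM or more in P1-ww silk, 385 met the silk condition (2.43%), and 240 of these also met the pericarp condition. Of the 145 others, 119 were lower with P1-rr in pericarp as well and 26 were higher there. In whole-tissue RNA, fewer cells of a type and less RNA per cell cannot be told apart.

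The members covered a wide range of levels. In P1-ww silk 74 stood between 5 and 10 CPM, 137 between 10 and 100, and 29 above 100. Together they took up 1.83% ± 0.0442 (SD, n = 3) of all counts in P1-ww silk and 0.748% ± 0.0965 in P1-rr silk. The P1-rr library that came closest to P1-ww was replicate 3 for 133 members, replicate 1 for 73 and replicate 2 for 34. The lowest P1-ww library was replicate 1 for 100 members, replicate 3 for 82 and replicate 2 for 58. P1-rr replicate 3 thus set the gap more often than any other P1-rr library.

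**Figure D1:**
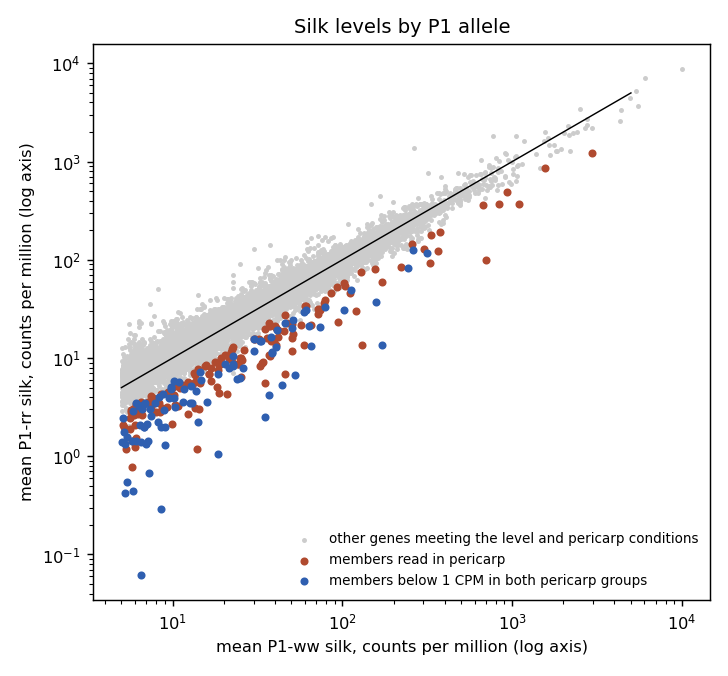
Mean level in P1-ww silk (horizontal) against mean level in P1-rr silk (vertical), both in CPM on log axes, for genes that met the level and pericarp conditions. Grey points are the 11819 genes that are not members, red points the 147 members read in pericarp, blue points the 93 members below 1 CPM in both pericarp groups, and the line marks equal levels; the members lie below the line, as the rule demands.

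The member with the highest level was Zm00001d048611. Its P1-ww silk libraries held 2791, 2780.0 and 3247 CPM, and its P1-rr silk libraries held 1207, 734 and 1698. P1-rr replicate 3 lay closest to P1-ww and replicate 2 farthest from it. This gene was higher still in pericarp, with 4809 ± 588 CPM in P1-ww and 3708 ± 970 in P1-rr (SD, n = 3 each). The member with the second highest level, Zm00001d037550, differed between the alleles by a smaller but very even step. It stood at 1634, 1589.7 and 1478 CPM in P1-ww silk and at 858, 853 and 859 in P1-rr silk. In pericarp it stood at only 40.9 ± 3.59 CPM in P1-ww and 35.5 ± 5.45 in P1-rr, so it was mainly a silk transcript in these stocks.

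The widest gap belonged to a member with low counts. It stood at 4.12, 5.89 and 9.47 CPM in P1-ww silk, while P1-rr silk held 5 counts in all, a ratio of 99.5 by pooled counts. This member was picked for its gap between libraries that chose the members, so the ratio is a description without an interval. The silks of B73, A632 and F1 held 2, 3 and 2 counts. Protoplasts read the same gene at 6.41 ± 7.03 CPM with the empty vector and 5.64 ± 3.40 with 35S:P1. Presence in leaf cells and near absence in 4 of the 5 silks was thus the pattern of this member.

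At the edge of the silk condition, the 3 members with the narrowest gaps had a ratio of lowest P1-ww to highest P1-rr library of 1.502, 1.505 and 1.507. The 3 genes just outside had 1.499, 1.498 and 1.498. The lowest member means in P1-ww silk were 5.003, 5.07 and 5.10 CPM, and the nearest genes left out stood at 4.95, 4.89 and 4.86. In pericarp the members nearest the limits had ratios of 0.671 and 1.49, and the nearest genes outside had 0.668 and 1.501. Genes on either side of these limits therefore had nearly the same values.

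In pericarp the members fell into 2 kinds. Of the 240, 93 were below 1 CPM in both pericarp groups, and 147 were read there at a like level in both stocks, with a median P1-rr to P1-ww ratio of 0.937. The 93 met the rule whatever the ratio of their pericarp means, so a like level there is not shown for them. Among the 147, the 3 P1-rr and the 3 P1-ww pericarp libraries overlapped in 128, P1-rr lay wholly lower in 14 (9.52%) and wholly higher in 5 (3.40%). Over all genes read in pericarp that met the level and pericarp conditions these shares were 10.3% and 16.6%, and the rule used these libraries. In P1-ww, 126 members stood at least 5 times higher in silk than in pericarp, and 57 stood higher in pericarp than in silk. The 126 include the 93 below 1 CPM in pericarp, which the rule placed there, since it asked for 5 CPM in P1-ww silk. No such share is given for other genes, so the 126 are a description. The highest of the 9 group means fell in P1-ww silk for 101 members, in a protoplast group for 33 (empty vector) and 26 (35S:P1), in A632 silk for 27 and in P1-ww pericarp for 21. Many members were thus not genes of silk alone.

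The median member level followed these groups library by library. In P1-ww silk the median over the 240 members was 17.3 to 19.5 CPM in the 3 libraries, and in P1-rr silk it was 6.06 to 7.53. B73 silk gave 7.63 to 8.98 CPM and A632 silk 6.95 to 9.34, and F1 silk lay below both with 5.38 to 5.89. Over all genes that met the level and pericarp conditions the medians were near each other in these silks, with 26.6 to 28.4 CPM in B73, 25.3 to 25.8 in A632 and 26.5 to 27.5 in F1. Pericarp gave member medians of 2.87 to 3.61 CPM in P1-ww and 2.76 to 3.09 in P1-rr. Protoplasts gave 3.53 to 4.81 with the empty vector and 4.63 to 5.40 with 35S:P1. The 93 members below 1 CPM in pericarp had a median of 12.1 ± 0.730 CPM in P1-ww silk and 0.863 ± 0.428 in empty-vector protoplasts, and 46 of them were below 1 CPM in those protoplasts too.

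**Figure D2:**
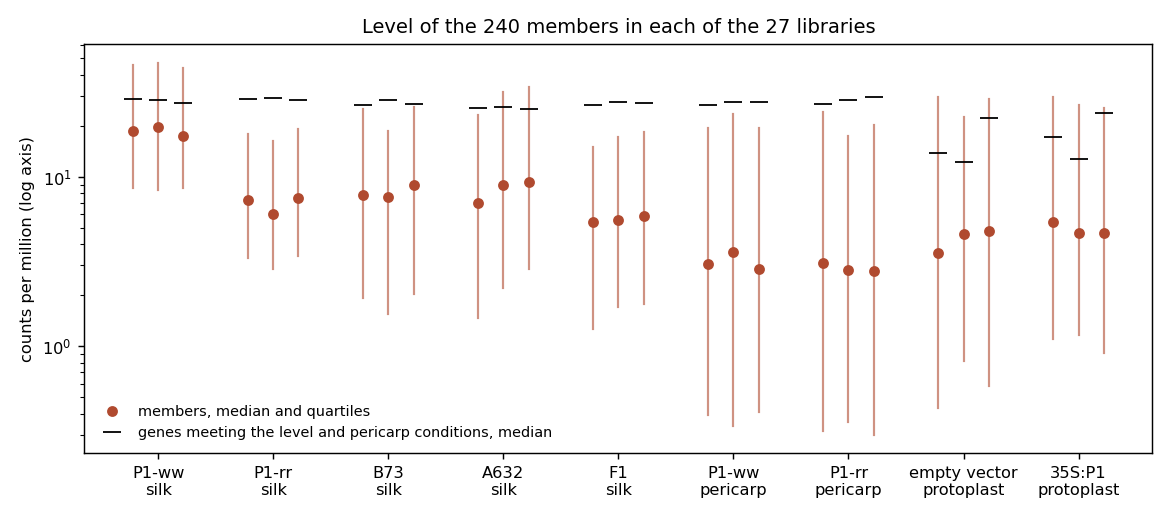
Level of the 240 members in each of the 27 libraries, in CPM on a log axis, with points for the median and lines from the lower to the upper quartile; black dashes mark the median of the 12059 genes that met the level and pericarp conditions. The 3 F1 silk medians, 5.38 to 5.89 CPM, lie below all 6 medians of B73 and A632 silk.

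The inbreds and the hybrid were not used to choose the members. Against the P1-rr and P1-ww silk means, F1 silk lay at or below P1-rr in 145 members, between the alleles in 66 and at or above P1-ww in 29. B73 silk lay at or below P1-rr in 115 and at or above P1-ww in 44, and A632 silk did so in 108 and 69. Among the 5 silk groups the lowest mean was that of F1 in 76 members, of P1-rr in 62, of A632 in 52 and of B73 in 50. In 18 members B73, A632 and F1 silk were all below 1 CPM, although their mean in P1-ww silk was 5 CPM or more. P1-ww and P1-rr silk both chose the members, so positions relative to either are a description.

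F1 silk was then set against its mid-parent value, the mean of B73 and A632 in log2 units, in a fit on the 9 libraries of B73, A632 and F1. The members stood mostly lower in the hybrid: 98 were lower and 27 higher (quasi-likelihood test of edgeR, with Benjamini-Hochberg adjusted p under 0.05 over all 23757 genes tested). Over all genes tested 15.5% were lower and 21.6% higher, or 37.1% in either direction. Among members the shares were 43.2% lower and 11.9% higher of the 227 that passed the filter on low counts, or 40.8% and 11.25% of all 240. The other 13 members had group means of at most 0.414 CPM in these silks and were not tested. Without the filter 96 were lower and 27 higher of the 238 with any count (40.3% and 11.3%). All 32091 genes of that fit gave 9.60% lower and 16.2% higher. The members' median log2 change was -0.68, with quartiles of -1.25 and 0.08, against 0.03 over all genes. The 11750 other genes tested that met the level and pericarp conditions had 19.0% lower and 18.2% higher, with a median of -0.03. The count of lower members was 58 without F1 replicate 1 and 65 without F1 replicate 2, while the members' median stayed at -0.65 and -0.74.

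Each parent taken alone showed the same direction, although both comparisons share the F1 libraries and are not independent. Against B73, 77 members were lower in F1 and 30 higher (33.9% and 13.2% of those tested), where all genes gave 18.5% and 20.5%, together 39% (edgeR, adjusted p under 0.05). Against A632, 110 were lower and 29 higher (48.5% and 12.8%), where all genes gave 21.9% and 22.7%, together 44.6%. F1 was below both parents in 37 members (16.3%, against 5.86% of all genes) and above both in 3 (1.32%, against 6.39%). In plain levels, all 3 F1 libraries lay under all 6 parent libraries in 47 members, or 19.6%, and above them in 7, or 2.92%. Among all genes with 5 CPM or more in P1-ww silk these shares were 10.4% and 12.9%.

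The fall in the hybrid was seen in both kinds of member, at unlike counts. Of the 147 members read in pericarp, 144 were tested, 74 were lower in F1 (51.4%) and 14 higher (9.72%), with a median log2 change of -0.82. Of the 93 members below 1 CPM in pericarp, 83 were tested, 24 were lower (28.9%) and 13 higher (15.7%), with a median of -0.40. The difference between these kinds was not tested. By size of the silk fold, 24 of 51 tested members under 2-fold were lower in F1 and 5 higher. From 2- to 4-fold 61 of 140 were lower and 16 higher, and at 4-fold or more 13 of 36 were lower and 6 higher. The median log2 changes of these classes were -0.52, -0.68 and -1.16. Without F1 replicate 1 the lower counts of the 3 classes were 13, 39 and 6, the last equal to its 6 higher. Members read in pericarp then had 45 lower and 11 higher, and those below 1 CPM there 13 lower (15.3%) and 10 higher (11.8%). All genes gave 7.46% lower and 14.6% higher in that fit. Without F1 replicate 2 the lower counts of the classes were 15, 43 and 7. Members read in pericarp had 49 lower and 11 higher, and those below 1 CPM there 16 lower and 9 higher. All genes then gave 8.82% lower and 14.7% higher. Without F1 replicate 3 the class at 4-fold or more had 8 lower, where 9.54% of all genes were lower. For comparison, the 235 genes chosen by the same rule with the alleles exchanged went the other way, with 125 higher and 11 lower in F1 of 233 tested and a median of 0.65. Neither set was chosen with any B73, A632 or F1 library, and the difference between the sets was not tested.

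**Figure D3:**
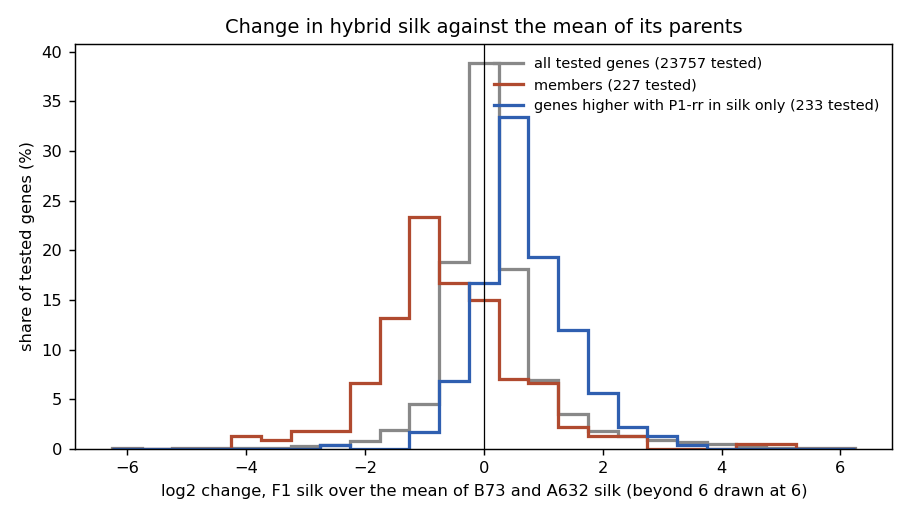
Share of tested genes (percent) by log2 change in F1 silk over the mean of B73 and A632 silk, in steps of 0.5, for all 23757 tested genes (grey), the 227 tested members (red) and the 233 tested genes of the exchanged rule (blue). Changes beyond 6 are drawn at 6. The members' median is -0.68, that of all genes 0.03 and that of the exchanged rule 0.65.

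The member with the highest level, Zm00001d048611, fell in the hybrid. It stood at 1350.0, 946 and 1116 CPM in B73 silk, at 1996, 2985 and 3247 in A632 and at 593, 629 and 755 in F1, so every F1 library lay below every parent library (log2 change -1.47 ± 0.21 SE, edgeR adjusted p = 0.00123). Zm00001d037550 lay between its parents, at 284, 292 and 327 CPM in F1, 534, 585 and 538 in A632 and 31.2, 20.1 and 49.0 in B73. It was called above the log-scale mid-parent value (log2 change 1.10 ± 0.23 SE, edgeR adjusted p = 0.00683) and below A632 (log2 change -0.99 ± 0.28 SE, edgeR adjusted p = 0.0186).

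The 2 members with the largest falls in the hybrid were Zm00001d052387 and Zm00001d040468. Zm00001d040468 stood at 0.909, 1.92 and 2.00 CPM in B73 silk, at 0.387, 1.21 and 1.91 in A632 and at 0.0825, 0.0974 and 0.109 in F1. Every F1 library was below every parent library (log2 change -3.82 ± 0.62 SE, edgeR adjusted p = 0.00216). This gene was far higher in pericarp, at 35.2 ± 8.22 CPM in P1-ww and 41.0 ± 1.79 in P1-rr, than in any silk. Zm00001d052387 was a low gene in these silks, with 0.205, 0.577 and 0.834 CPM in B73, 0.0893, 0.302 and 1.10 in A632 and 3 counts in all in F1. The parents' pooled rate was 19.3 times that of F1, with an exact 95% counting interval of 6.42 to 95.2 (edgeR adjusted p = 0.0173). Its call was lost without F1 replicate 1 or 2.

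The 2 members with the largest rises in the hybrid were read in A632 and hardly in B73. For a gene read in 1 parent only, this log-scale mid-parent value lies far below the higher parent, so F1 can exceed it while lying under that parent. Zm00001d004342 had the largest rise and stood at 9.71, 84.5 and 50.1 CPM in A632, at 32.8, 99.3 and 66.1 in F1 and at no more than 0.137 in B73 (log2 change 4.85 ± 0.70 SE, edgeR adjusted p = 0.00129). Against A632 alone its log2 change was 0.34 ± 0.64 SE (edgeR adjusted p = 0.689). Zm00001d004346 followed with 4.38, 36.8 and 5.85 CPM in A632, 1.51, 34.7 and 3.10 in F1 and 2 counts in B73 (log2 change 4.38 ± 1.39 SE, edgeR adjusted p = 0.0364). Replicate 2 was the highest library of both genes in A632 and in F1, and without F1 replicate 2 the change of Zm00001d004346 was 1.88 and no longer called; its call was also lost in 6 other alternatives that moved the change less.

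Between the parents themselves, 57 members were higher in B73 and 87 lower than in A632 (25.1% and 38.3% of 227 tested; edgeR, adjusted p under 0.05). All genes tested gave 24.1% and 26.4%, together 50.5%, and the other genes that met the level and pericarp conditions 20.0% and 27.1%. The members' median log2 change was -0.38 with quartiles of -1.55 and 0.77, against -0.07 with quartiles of -0.37 and 0.26 over those other genes. Without A632 replicate 3 the members' median was -0.15, with quartiles of -1.26 and 1.07. Those other genes then had -0.05, with quartiles of -0.36 and 0.30. With any other single library left out, the members' median was -0.46 to -0.27. The members were thus spread more widely between the inbreds than those other genes, in both directions. All genes tested had quartiles of -0.50 and 0.51. The 233 tested genes of the exchanged rule had quartiles of -0.61 and 0.85, so a wide spread was not particular to the members. At 2-fold or more 47 members were higher (20.7%) and 73 lower (32.2%), where all genes gave 13.1% and 12.4%. Of the genes of the exchanged rule 46 were higher and 33 lower at 2-fold or more.

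Reads of every line were counted on the B73 genome (B73 RefGen_v4), and the part of sequence differences between lines in these levels was not tested. Zm00001d051932 stood at 394, 423 and 366 CPM in B73 silk and at 0.953, 2.14 and 2.60 in A632, with 82.4, 71.7 and 87.4 in F1 (log2 change of B73 over A632 7.56 ± 0.33 SE, edgeR adjusted p = 6.01e-07). It stood at 157 ± 21.3 CPM in P1-ww silk and 37.4 ± 7.38 in P1-rr silk. Zm00001d003626 stood at 3.08, 4.37 and 4.87 CPM in B73 and had 1 count in A632, a ratio of 403 with an exact 95% counting interval of 71.9 to 15940 (edgeR adjusted p = 1.87e-05). On the other side, Zm00001d004346 was read 792 times higher in A632 than in B73 by pooled counts, with an interval of 219 to 6544 (edgeR adjusted p = 0.00543, not called by DESeq2). Its A632 libraries held 4.38, 36.8 and 5.85 CPM, so A632 replicate 2 held most of its reads. Without that library its log2 change of B73 over A632 went from -9.52 to -7.92. Zm00001d004348 stood at 0.506, 68.4 and 2.00 CPM in A632 against 4 counts in B73 (log2 change of B73 over A632 -9.23 ± 2.32 SE, edgeR adjusted p = 0.00953), and A632 replicate 2 held most of its reads. Without that library its log2 change was -5.02 and still called.

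**Figure D4:**
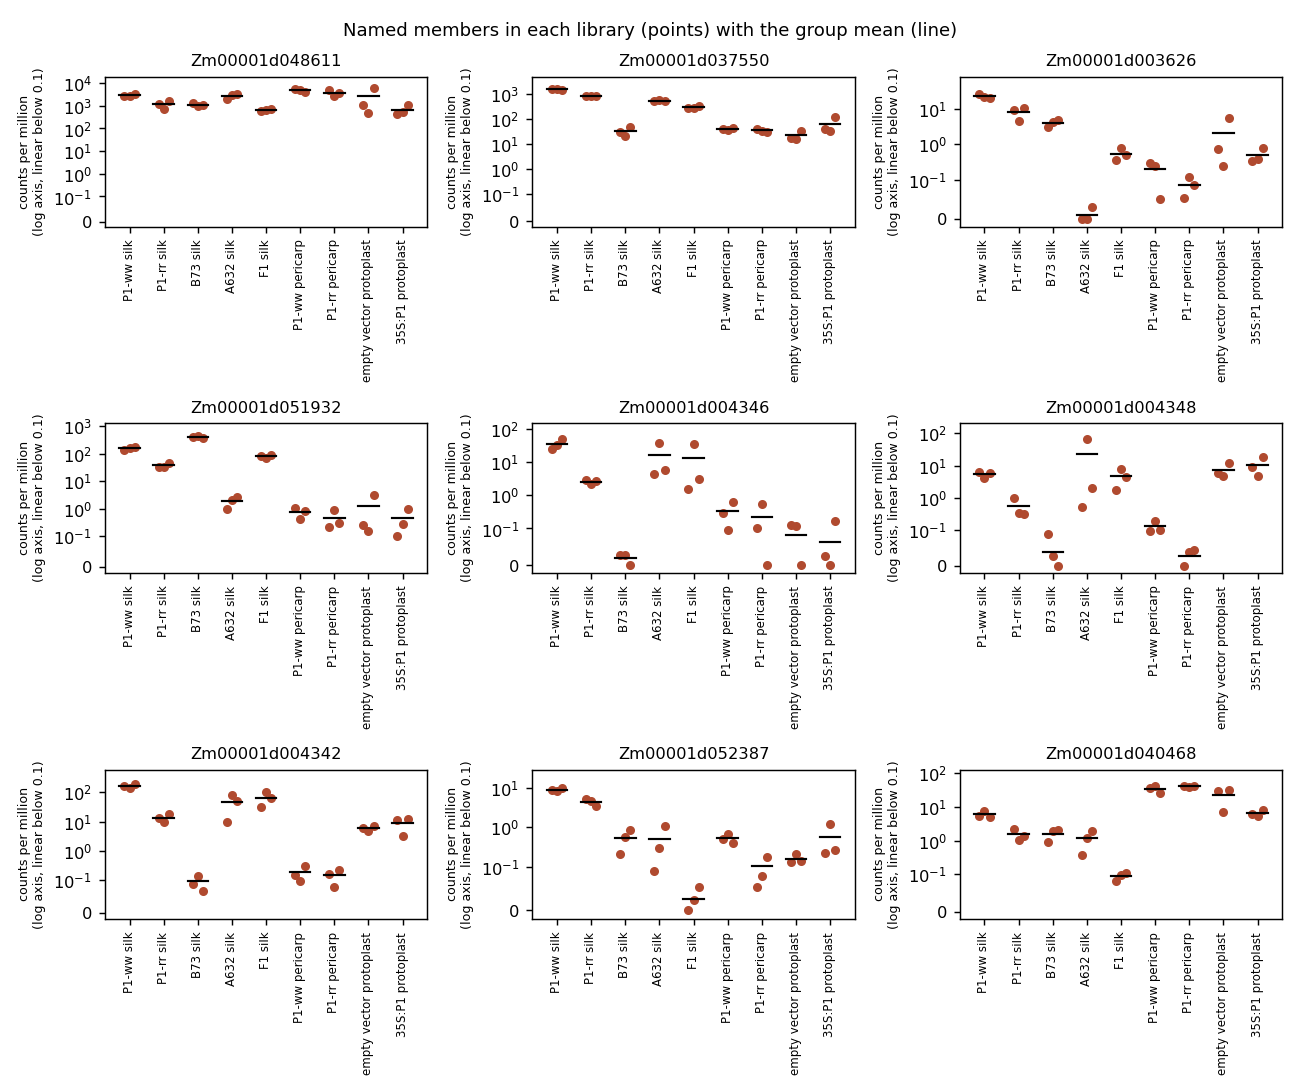
Level in CPM of the 9 named members in each library (points) with the mean of each group (line), on an axis that is logarithmic above 0.1 and linear below. In Zm00001d040468 the 3 F1 silk points, 0.0825 to 0.109, lie below every other silk point and its 6 pericarp points, with group means of 35.2 and 41.0, lie above every silk point.

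In protoplasts, 35S:P1 was compared with the empty vector to see whether P1 in leaf cells moves these genes. The test called 0 members higher and 0 lower of 212 tested (edgeR, adjusted p under 0.05), where 0.139% of all 25127 genes were higher and 0% lower. At an unadjusted p under 0.05 edgeR gave 18 higher and 9 lower members (8.49% and 4.25%), where all genes gave 5.57% and 0.86%. DESeq2 called 13 higher (5.49%) and 0 lower of the 237 members with any count, where all genes gave 1.87% and 0.0263% (adjusted p under 0.05). The median log2 change of the members was -0.10 with quartiles of -0.67 and 0.35, against -0.04 over all genes. In simulated counts this edgeR test found 4% of genes changed 4-fold and 90% of genes changed 32-fold, so smaller changes were mostly not detectable by it. The changed genes were drawn from those with a mean of 5 CPM or more. With the empty vector 65 members had a mean below 1 CPM, and these rates do not cover such genes. Libraries of 35S:P1 and empty vector that share a number deviated alike, and once this number was fitted as a block 16 members were higher (7.55%) and 9 lower (4.25%), where all genes gave 5.19% and 1.08%, together 6.28% (edgeR, adjusted p under 0.05). The other genes that met the level and pericarp conditions gave 3.59% and 0.669%.

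Of the named genes, 2 were called with the block. Zm00001d037550 stood at 41.5, 33.0 and 118 CPM with 35S:P1 and at 17.6, 15.7 and 33.9 with the empty vector, higher in each numbered pair (log2 change 1.21 ± 0.22 SE, edgeR adjusted p = 0.0145 with the block and 0.673 without). It thus moved up with 35S:P1 while it stood lower with P1-rr in silk. Zm00001d040468 stood at 6.29, 5.51 and 8.02 CPM with 35S:P1 and at 30.4, 6.999 and 32.3 with the empty vector, lower in each pair (log2 change -1.74 ± 0.40 SE, edgeR adjusted p = 0.0347 with the block and 0.392 without). Zm00001d048611 ranged from 498 to 6135 CPM among the empty-vector libraries and from 446 to 1104 with 35S:P1, groups that overlap, and was not called (edgeR adjusted p = 0.110 with the block).

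Some members had near neighbours in identifier number, while their genome positions are not analysed here. Of the 240 members, 33 (13.75%) lay within 10 numbers of another member, in 15 runs, of which 2 held 3 or more. No such share is given for other genes, so whether this count is high for a set of this size was not tested. The run of 3 was made of Zm00001d004342, Zm00001d004346 and Zm00001d004348, all named above, and all 3 were read in A632, F1 and P1-ww silk, at 0.543 to 13.5 CPM in P1-rr and at no more than 0.0973 CPM on average in B73. Whether these genes share reads as similar copies is not known from the files. In blocks of 1000 identifiers the members made up 0% to 4.95% of the genes that met the level and pericarp conditions. The densest block, 29000 to 29999, held 11 members and the one before it 10 (3.86%), and the same blocks held 15 and 14 genes of the exchanged rule. Block 4000 to 4999 held 7 members (4.70%) and block 39000 to 39999 held 11 (4.06%), with 4 and 3 genes of the exchanged rule. These blocks were picked after their counts were seen.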

How the data were processed

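The authors deposited whole-number counts of reads for 39005 genes in 27 libraries, without normalization. Per the submitters' processing notes, Trimmomatic, HISAT2 2.0.4 and the genome B73 RefGen_v4 were used. The annotation, the counter and whether it used strand are not stated in the labels, so genes that overlap or share reads are uncertain. The 16 peak lists were not used.

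The member rule used CPM on column totals. Tests used the two-sided quasi-likelihood F-test of edgeR 4.0.16 (R 4.3.3) with TMM factors, filterByExpr, 1 mean per group and an adjusted p under 0.05 over all genes tested. B73, A632 and F1 silk were fitted together without the P1 stocks, so that libraries that chose the members did not enter, and protoplasts were fitted alone. An SE is the log2 change divided by the root of F. DESeq2 1.42.0 served as an alternative. Counting intervals are exact (Clopper-Pearson) and cover counting error only. Chi-square divided by its degrees of freedom was 7.40 to 666 between libraries of 1 group, far above sampling noise.

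In protoplasts, deviations from the group mean correlated across genes by 0.543 to 0.815 between libraries with the same number and by at most 0.294 between others. The numbers were therefore taken to pair these libraries, from the data and not from the labels. On simulated counts with 200 changed genes, the fits recovered 98% of 4-fold changes between the parents, 100% for F1 against their mean and 4% in protoplasts. The changed genes were drawn from those with a mean of 5 CPM or more in the libraries of the fit, so lower genes are not covered. These simulated fits held no replicate block, so they do not describe what the blocked test can detect.

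The members, comparisons and gene sets were chosen with earlier results of these data known. The comparisons with each parent alone, the exchanged rule and the identifier runs were added after the values were seen. Named members are those with the highest P1-ww silk level and those called with the largest change in each direction, at most 2 each. Word lists for gene groups and tissue markers, and the planned counts of promoter motifs and peaks, were not used, since 0 identifiers matched the reference table.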

Additional observations from a re-analysis of the deposited data

How the results depend on the processing

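Member counts called between the parents and in F1 stayed within 1.5 times the reported value under DESeq2 size factors, no filter, the DESeq2 Wald test, the replicate block and all 15 silk libraries in 1 fit. With the replicate block the F1 comparison gave 100 lower and 23 higher members. With 1 library left out, lower members in F1 ranged from 58 to 109 and higher from 19 to 28, and B73 against A632 gave 49 to 62 higher and 78 to 94 lower. The lowest counts of lower members, 58 and 65, came without F1 replicates 1 and 2, where lower calls over all genes dropped from 3682 to 1809 and 2141. As shares of all genes tested these calls were 15.5%, 7.46% and 8.82%.

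In protoplasts the 0 higher members became 1 without the filter, 13 with DESeq2, 16 with the replicate block and 20 with all 27 libraries in the fit, and ranged from 0 to 1 with a library left out, with 1 without 35S:P1 replicate 2 or 3. The 0 lower members became 9 with the replicate block and 16 with all 27 libraries, and stayed at 0 with each library left out. The cause was not tested, apart from the pairing of the libraries that the block takes up. Calls over all genes rose in these fits as well. With all 27 libraries 8.33% of members were higher and 6.67% lower, where all genes gave 5.96% and 2.28%. The other genes that met the level and pericarp conditions gave 5.33% and 3.49% in that fit. The difference between members and these genes was not tested.

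The rule gave 253 members with TMM-scaled library sizes, 211 of them shared, 105 with a gap of 2, 658 with a gap of 1.2, 420 at a level of 1 CPM, and 260 to 343 with a silk library left out, a looser rule by construction. It gave 166 at a level of 10 CPM and 169 with a narrower pericarp ratio. In every one of these sets the share lower in F1 was 38.2% to 46.3% and the share higher 8.93% to 13.7%. The sets of 105, 166 and 169 lay wholly within the 240 members, and the looser rules kept 236 to 240 of them. Similar shares are thus in part built in. For the named members in the silk tests, 102 alternative values kept the call and 10 lost it, namely 8 of Zm00001d004346 and 2 of Zm00001d052387, and none reversed a sign. Silk libraries share numbers only (r of -0.27 to 0.13 between B73, A632 and F1), so the block there is no pairing. Promoter motifs and peaks near members were planned and not run.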
